A study of Mus musculus with 9 samples.

Results

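The 10 genes described here encode heat shock proteins and their partners: Hspa1a and Hspa1b (the stress-inducible HSP70 pair), Hspa8 (the constitutive HSP70), Hsph1 (HSP110), Dnajb1 (an HSP40), Hsp90aa1 (the inducible HSP90), Bag3 (an HSP70 release factor), Hspb1 (the small heat shock protein HSP27), Hspd1 (HSP60) and Hspe1 (HSP10). They were chosen by name, and every probe set whose platform annotation gives 1 of these symbols and no other was taken, which gave 23 of 45037 probe sets and 10 of 18193 genes. The symbols Hspd1 and Hspe1 belong to chaperonin subunits of the mitochondrial matrix, so the description as cytosolic heat shock genes holds for the other 8. RNA came from mouse granulosa cells, the follicle cells around the oocyte, taken at 20 to 26 days of age and 48 h after equine chorionic gonadotrophin (eCG), a hormone that drives follicle growth. The cells attached overnight in 1% serum and then spent 24 h without serum with an adenovirus. The virus carried eGFP in the control group, Cre recombinase in the second group or WNT4 in the third, and each group has 3 arrays. All groups were therefore infected, and no uninfected cells were analysed here. The mice are described as of various genotypes, with the genotype behind each virus not given in the sources used here. Cre acts on floxed Ctnnb1, which encodes beta-catenin, a carrier of WNT signals. The replicates are called biological, with no word on animals or dishes, and p-values therefore reflect only how these samples vary, which may be technical.

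Heat shock proteins bind unfolded polypeptides and help them fold, keep them soluble or pass them on for degradation. HSP70 proteins work in cycles of ATP hydrolysis that HSP40 proteins start and exchange factors such as HSP110 and BAG proteins end, and HSP90 takes over clients that include steroid hormone receptors. Under proteotoxic stress the transcription factor HSF1 forms a trimer and binds heat shock elements, runs of inverted GAA units in the promoters of these genes. A separate programme, the unfolded protein response, governs the chaperones of the endoplasmic reticulum (ER).

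Promoters are shown for the genes whose values are taken up first below and for those that carry the longest element or none. Windows from 250 bases before to 50 bases after the transcription start were taken from RefSeq (GRCm38.p6). Entries were matched for 8 of the 10 genes, in 11 windows, and none for Hspa8 and Hsp90aa1. The windows were searched for GAANNTTC and TTCNNGAA, each of which reads the same on both strands. A triple is a match of each kind that share 3 bases, so that 3 units follow each other. In the sequences, written 5′ to 3′ on the strand of the gene, capitals mark the bases in a match. The window of Hspa1a lies at chr17:34972107-34972406 (minus strand) and Hspb1 at chr5:135887669-135887968 (plus strand). Hspa1b lies at chr17:34959189-34959488 (minus strand). Its window differs from that of Hspa1a at 4 of 300 bases. Hsph1 (entry 1 of 2) lies at chr5:149636287-149636586 (minus strand), Hspe1 at chr1:55087898-55088197 (plus strand) and Dnajb1 (entry 1 of 2) at chr8:83607925-83608224 (plus strand).
Hspa1a: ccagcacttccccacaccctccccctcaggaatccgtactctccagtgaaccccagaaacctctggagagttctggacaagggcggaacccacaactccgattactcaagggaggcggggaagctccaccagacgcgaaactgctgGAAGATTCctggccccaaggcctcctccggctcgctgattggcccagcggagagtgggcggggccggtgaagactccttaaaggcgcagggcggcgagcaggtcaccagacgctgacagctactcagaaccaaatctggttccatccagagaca
Hspa1b: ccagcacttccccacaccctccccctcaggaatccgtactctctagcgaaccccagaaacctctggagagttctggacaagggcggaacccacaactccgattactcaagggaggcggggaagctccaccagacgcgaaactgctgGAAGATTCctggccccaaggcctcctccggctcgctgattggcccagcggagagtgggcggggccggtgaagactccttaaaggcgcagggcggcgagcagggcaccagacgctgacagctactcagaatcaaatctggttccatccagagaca
Hspb1: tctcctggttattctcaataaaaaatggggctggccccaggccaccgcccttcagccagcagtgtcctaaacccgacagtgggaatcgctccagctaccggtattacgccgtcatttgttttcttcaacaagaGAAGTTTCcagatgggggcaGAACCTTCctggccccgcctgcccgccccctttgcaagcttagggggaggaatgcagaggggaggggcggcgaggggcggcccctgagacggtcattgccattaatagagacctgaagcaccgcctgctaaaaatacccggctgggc
Hsph1: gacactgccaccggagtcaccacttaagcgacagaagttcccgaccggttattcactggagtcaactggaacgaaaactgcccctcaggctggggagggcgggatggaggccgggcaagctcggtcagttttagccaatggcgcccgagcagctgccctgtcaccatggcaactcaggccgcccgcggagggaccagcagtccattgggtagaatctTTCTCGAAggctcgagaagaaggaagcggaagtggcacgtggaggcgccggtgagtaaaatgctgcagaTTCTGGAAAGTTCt
Hspe1: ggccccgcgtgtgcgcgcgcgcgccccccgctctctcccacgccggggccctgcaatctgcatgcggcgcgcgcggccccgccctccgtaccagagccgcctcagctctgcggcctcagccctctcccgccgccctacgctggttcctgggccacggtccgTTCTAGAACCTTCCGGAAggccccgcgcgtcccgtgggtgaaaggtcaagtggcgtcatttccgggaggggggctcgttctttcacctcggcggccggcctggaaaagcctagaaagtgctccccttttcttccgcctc
Dnajb1: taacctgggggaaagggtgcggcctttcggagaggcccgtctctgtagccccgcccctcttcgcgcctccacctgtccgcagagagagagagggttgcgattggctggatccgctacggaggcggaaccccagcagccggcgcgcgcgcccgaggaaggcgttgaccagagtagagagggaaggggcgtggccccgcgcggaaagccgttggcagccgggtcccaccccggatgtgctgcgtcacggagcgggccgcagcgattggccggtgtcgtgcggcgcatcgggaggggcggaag

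A pair of inverted units was present in 7 of the 8 matched genes, against 17% of 27025 genes with a promoter entry, and a triple in 3 of 8, against 0.662%. Hspa1a and Hspa1b hold 1 pair at the same place, positions -104 to -97 from the start. In Hspb1 the pairs begin at positions -117 and -97, and in Bag3, at chr7:128523333-128523632, a pair begins at position 43. The triple of Hsph1 begins at position 37. Hspd1 and Hspe1 are neighbours read in opposite directions, with starts 216 bases apart by entry 2 of Hspd1. An 18-base element, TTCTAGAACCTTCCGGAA, lies at chr1:55088059-55088076 within the window of Hspe1 and that of Hspd1 entry 2. Both genes thus count in the shares above through the same bases, and Hspd1 entry 1 holds no match. Neither Dnajb1 window holds a match. These are letter matches, not measured binding.

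Array values are RMA expression values on the log2 scale, on which a difference of 1 is a doubling, and they ran from 3.46 to 15.28. Values of different probe sets are not compared with each other, since probes differ in brightness. Array medians lay between 5.44 and 5.54, but upper quartiles went from 7.68 on GFP 1 to 8 on WNT4 1. The arrays therefore do not share the same distribution, and whether the quantile normalization step of RMA was applied is unclear. Differences below are on the values as deposited unless quantile normalization is named. WNT4 1 also had the highest 3′ to 5′ signal differences, 1.38 for beta-actin and 2.17 for Gapdh (0.98 to 1.30 and 0.95 to 1.88 on the other arrays). Granulosa markers were present: 9 of 10 had a mean of at least 6, below which a probe set is called dim here, and Amh was dim at 5.99. Their levels were not even across groups. In WNT4 against GFP, groups did not overlap at 3 with WNT4 lower, Esr2, Foxl2 and Amh (5.52% of all genes). WNT4 was higher without overlap at 1, Nr5a1 (12.5%). Esr2 averaged 7.54 with GFP, 6.91 with Cre and 6.3 with WNT4. The median difference of the 10 was -0.06, or -0.38 once quantile normalization gave all arrays the same distribution. The genes that the viruses carry or act on did not bear out the labels, so group names below mean the arrays as labelled. Wnt4, at the brighter of its probe sets, averaged 9.41 ± 0.45 (SD, n = 3) with GFP, 10.63 ± 0.55 with Cre and 9.34 ± 0.48 with WNT4, and at the other 8.32 ± 0.78, 9.62 ± 0.51 and 9.29 ± 0.82. At the brighter Wnt4 probe set all Cre arrays were above all GFP and all WNT4 arrays. The 3 Ctnnb1 probe sets differed by 0.04 to 0.20 between Cre and GFP, and were 0.48 to 0.53 higher with WNT4 than with GFP. Whether these probe sets lie in the virus-borne or deleted sequence is unknown here.

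Cells labelled WNT4 were first compared with the GFP control. The inducible HSP70 genes and Hspb1 had the greatest differences among the 10 genes, Hspb1 at 2.33-fold, Hspa1b at 1.87-fold and Hspa1a at 1.66-fold, with all 3 WNT4 arrays above all 3 GFP arrays for each. Hspa8, Hsph1 and Hsp90aa1 were 1.32 to 1.44 times as high, and Dnajb1, Hspd1, Bag3 and Hspe1 1.12 to 1.29 times. No probe set of these genes passed limma's test after Benjamini-Hochberg adjustment over all probe sets (adjusted p from 0.0984 to 0.978), where 0.0155% of all probe sets (7 of 45037) did. At an unadjusted p under 0.05, 14 of the 23 probe sets were higher and 0 lower, against 9.12% higher and 3.91% lower among all. The groups did not overlap at 10 of 23, all with WNT4 higher, against 9.28% of all probe sets. With 1 probe set per gene, that with the highest mean, 6 of the 10 genes had an unadjusted p under 0.05 with WNT4 higher, against 12.6% of 18193 genes. The median difference of the 10 genes was 0.44 (1.36-fold), against 0.02 for all genes. After quantile normalization, taken up below, the median of the 10 genes was 0.09.

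**Figure D1:**
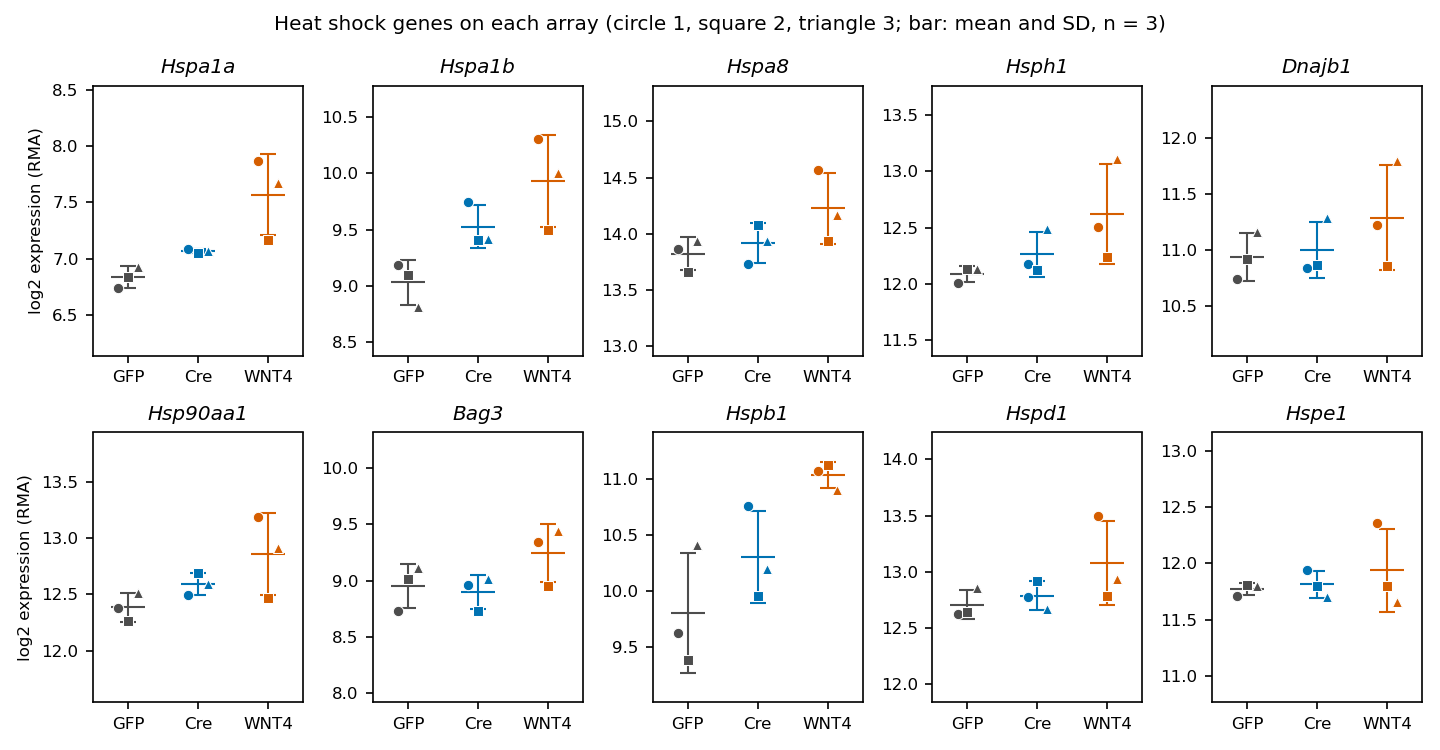
RMA log2 value (vertical axis) of the brightest probe set of each of the 10 genes on the 9 arrays, by virus group (GFP, Cre, WNT4), with circles, squares and triangles for arrays 1, 2 and 3, horizontal bars for means and vertical bars for the SD (n = 3). For Hspa1a, Hspa1b and Hspb1 the 3 arrays labelled WNT4 lie above the 3 GFP arrays. In these values as deposited, WNT4 2 is the lowest WNT4 array for 8 of the 10 genes.

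Hspa1a and Hspa1b encode nearly identical proteins that are made at low level until stress induces them. Hspa1a read 6.74, 6.84 and 6.93 on GFP 1, 2 and 3, 7.09, 7.05 and 7.07 on Cre 1, 2 and 3, and 7.87, 7.17 and 7.67 on WNT4 1, 2 and 3. The 3 groups did not overlap, with GFP lowest and WNT4 highest, and WNT4 2 stood close to the Cre arrays. The difference between WNT4 and GFP was 0.73 ± 0.16 (SE, n = 3 arrays per group; limma adjusted p = 0.178, unadjusted p = 0.00157).

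The brightest of the 3 Hspa1b probe sets read 9.19, 9.10 and 8.81 with GFP, 9.75, 9.41 and 9.42 with Cre and 10.31, 9.50 and 10 with WNT4 (arrays 1, 2 and 3). Here GFP was again apart from both other groups, while WNT4 2 lay below Cre 1. The difference between WNT4 and GFP was 0.90 ± 0.20 (adjusted p = 0.178). The other Hspa1b probe sets gave 1.16 ± 0.22 and 1.11 ± 0.22, or 2.23-fold and 2.15-fold (adjusted p = 0.171 for both), also without overlap. Because the transcripts are so alike, how far each probe set measures 1 of these genes rather than both was not tested.

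Hspb1 encodes HSP27, which holds unfolded proteins without ATP and binds actin filaments. Its brighter probe set read 9.63, 9.39 and 10.41 with GFP, 10.76, 9.96 and 10.20 with Cre and 11.07, 11.12 and 10.90 with WNT4. Unlike for the HSP70 pair, the 3 WNT4 arrays were close together (SD 0.12), and the spread lay in GFP (SD 0.53) and Cre (SD 0.41). The difference between WNT4 and GFP was 1.22 ± 0.28 (adjusted p = 0.178). Its other probe set gave 1.18 ± 0.28, also with no overlap (adjusted p = 0.187). There the SD was 0.26 with WNT4, 0.53 with GFP and 0.36 with Cre.

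Hspa8 encodes HSC70, the HSP70 of unstressed cells. Its brightest probe set read 13.87, 13.66 and 13.94 with GFP, 13.73, 14.08 and 13.94 with Cre and 14.57, 13.94 and 14.17 with WNT4. To 2 decimals, the lowest WNT4 array and the highest GFP array had the same value, so the separation of these groups is only nominal. The difference was 0.41 ± 0.17 (adjusted p = 0.355). The 3 other probe sets gave 0.44, 0.31 and 0.10, each with overlapping groups.

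Among the partners of HSP70, Hsph1 encodes the exchange factor HSP110, which releases ADP from HSP70. Its brightest probe set read 12.01, 12.13 and 12.13 with GFP, 12.18, 12.12 and 12.49 with Cre and 12.51, 12.24 and 13.11 with WNT4. WNT4 3 was the highest array, and all WNT4 arrays lay above GFP, WNT4 2 by the least. The difference was 0.53 ± 0.20 (adjusted p = 0.328). The second Hsph1 probe set gave 0.56 ± 0.19, with WNT4 2 within the GFP range.

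Dnajb1 encodes the HSP40 that hands unfolded proteins to HSP70, and its probe sets disagreed. The brighter read 10.74, 10.92 and 11.16 with GFP, 10.84, 10.87 and 11.29 with Cre and 11.22, 10.86 and 11.79 with WNT4. In every group array 3 was the highest, the groups overlapped, and WNT4 differed from GFP by 0.35 ± 0.23 (adjusted p = 0.572). The second probe set read 7.81, 7.67 and 7.83, then 8.21, 8.21 and 8.08, then 8.35, 8.34 and 8.37 in the same order. Its 3 groups were fully apart, the WNT4 arrays lay close together (SD 0.01), and the difference from GFP of 0.59 ± 0.08 (1.5-fold) had the lowest adjusted p of the 23 probe sets, 0.0984. Which transcripts the Dnajb1 probe sets read is not known here.

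Bag3 encodes a release factor that directs HSP70 clients with HSPB proteins to autophagy. It read 8.73, 9.01 and 9.11 with GFP, 8.96, 8.73 and 9.01 with Cre and 9.34, 8.95 and 9.44 with WNT4. WNT4 2 lay within the GFP range, and the difference was 0.29 ± 0.16 (adjusted p = 0.478).

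Hsp90aa1 encodes the inducible form of HSP90, which stabilises kinases and steroid receptors. Its brightest probe set read 12.38, 12.26 and 12.51 with GFP, 12.49, 12.69 and 12.59 with Cre and 13.19, 12.47 and 12.91 with WNT4. WNT4 1 and WNT4 3 were above every other array and WNT4 2 within the GFP range. The difference was 0.47 ± 0.17 (adjusted p = 0.298), and 0.53 and 0.56 at its other probe sets that are not dim. The remaining 2 of its 5 probe sets were dim and differed by 0.04 and 0.01.

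The mitochondrial pair was read last. Hspd1, the HSP60 subunit of the folding chamber, read 12.63, 12.64 and 12.86 with GFP, 12.78, 12.92 and 12.67 with Cre and 13.50, 12.79 and 12.94 with WNT4. Hspe1, its lid HSP10, read 11.71, 11.81 and 11.80, then 11.94, 11.80 and 11.70, then 12.36, 11.80 and 11.66. For both genes WNT4 1 was the highest array and WNT4 2 lay within the GFP range. Their differences were 0.37 ± 0.18 for Hspd1 (adjusted p = 0.419) and 0.17 ± 0.17 for Hspe1 (adjusted p = 0.719). The second Hspe1 probe set gave -0.03 ± 0.22. WNT4 3 was above all GFP arrays for Hspd1 and below all of them for Hspe1.

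**Figure D2:**
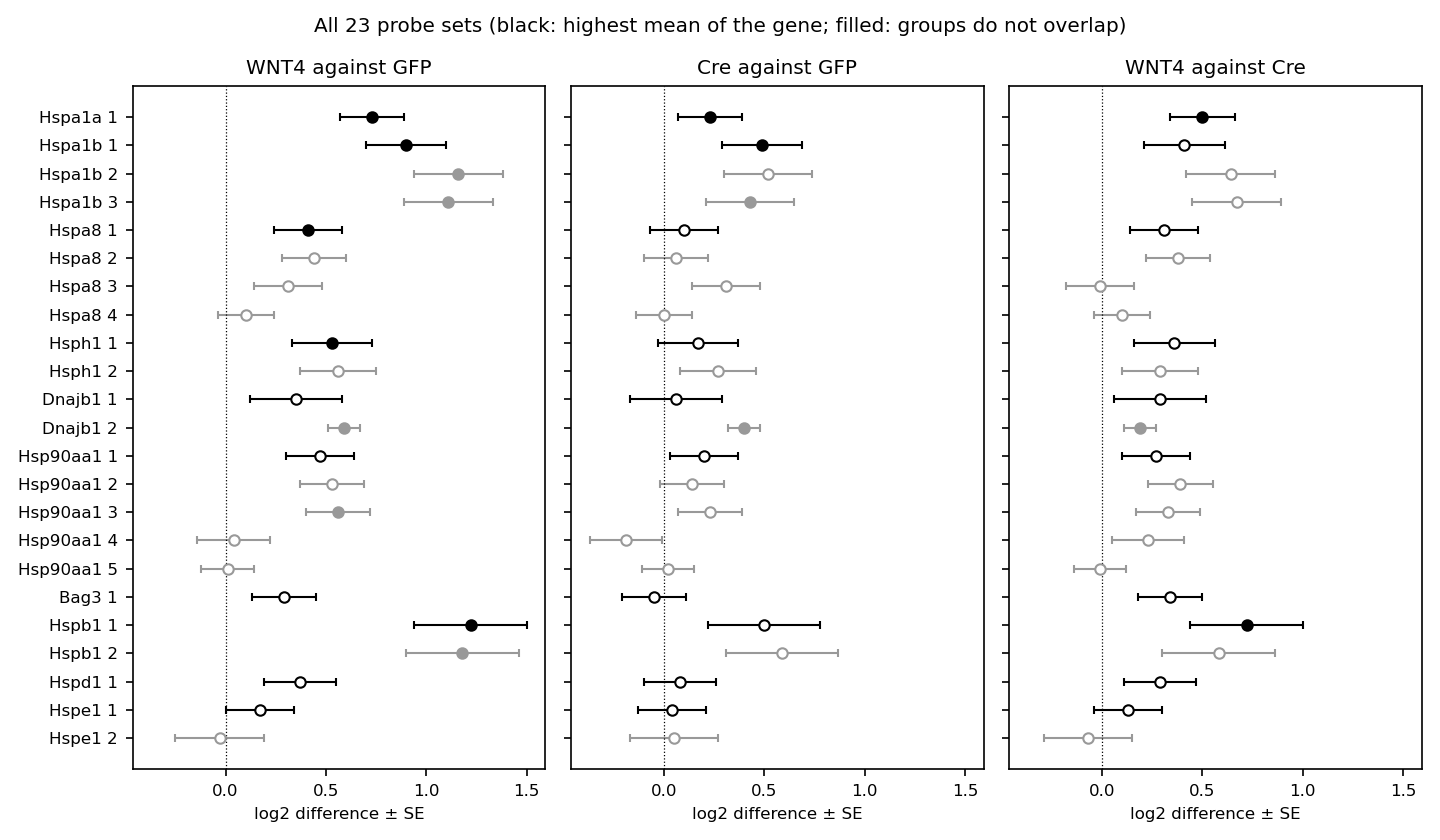
Difference in log2 value between groups (horizontal axis) for each of the 23 probe sets, by gene, in the 3 comparisons, with points for the fitted difference, bars for its standard error, black for the brightest probe set of a gene and filled points where groups do not overlap. The probe sets of Hspa1b (0.90 to 1.16) and Hspb1 (1.18 and 1.22) lie farthest from 0 in WNT4 against GFP.

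The WNT4 arrays did not form an even group in the values as deposited. The median of the 10 genes was 0.77, 0.11 and 0.68 over the mean of the GFP arrays on WNT4 1, 2 and 3, 0.10, 0.18 and 0.22 on Cre 1, 2 and 3, and -0.08, -0.01 and 0.12 on the GFP arrays. WNT4 2 was thus below Cre 2 and Cre 3, and the pooled within-group SD of this median was 0.22. Without WNT4 2, 6 of the 23 probe sets passed at an adjusted p under 0.05, against 1.66% of all probe sets. These were Hspa1a (0.93, adjusted p = 0.0272), the 3 probe sets of Hspa1b (1.12 to 1.35, adjusted p from 0.0356 to 0.0399), the second Dnajb1 probe set (0.59, adjusted p = 0.0406) and 1 of Hsp90aa1 (0.71, adjusted p = 0.0424). Leaving out any other array gave 0. Hspb1 was not among the 6. Markers of other cells differed between these arrays too. The summed linear signal of 7 oocyte markers was 4396 on WNT4 1, 1358 on WNT4 2 and 1215 on WNT4 3 (GFP 864 to 2091, Cre 1062 to 2747), and Bmp15 was dim. The 8 theca and stroma markers summed to 4281, 3123 and 10926 (GFP 3643 to 8603, Cre 3586 to 8468), with Lum and Cyp17a1 dim on average. These markers did not go one way on WNT4 1. There Lum (7.33), Dcn (9.50) and Pdgfra (8.16) were above all other arrays, while Acta2 (10.81), Tagln (8.53) and Col1a1 (5.73) were below all GFP arrays. The part of these cells in the heat shock values was not tested, and in bulk RNA more cells of a type and more RNA per cell cannot be told apart. Leukocyte markers (8 measured) summed to 1109, 844 and 1658 on GFP 1, 2 and 3 and to 811, 1350 and 1821 on Cre 1, 2 and 3. On WNT4 1, 2 and 3 they summed to 811, 1145 and 1733, so array 3 was the highest in each group. Among them Ptprc and Cd52 were dim. Endothelial markers (6 measured) summed to 297 to 334 with WNT4, 281 to 320 with Cre and 311 to 317 with GFP, with Pecam1, Cdh5, Tek and Emcn dim.

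The difference between WNT4 and GFP went up with the signal of a probe set over all genes, and most of the 10 genes are bright. Genes were binned by the mean value of their brightest probe set, a comparison chosen after seeing the data. The median difference between WNT4 and GFP over all genes was 0.01 for means of 6 to 8, 0.17 for 8 to 10, 0.28 for 10 to 12 and 0.40 for 12 or more. Hspa1a, Hspa1b and Hspb1 lay above the middle 50% of their bins, whose upper ends were 0.23, 0.36 and 0.44. Hsph1 was at the edge of its bin (0.53 for both). Hspa8, Hsp90aa1, Hspd1, Dnajb1, Hspe1 and Bag3 lay within the middle 50%.

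**Figure D3:**
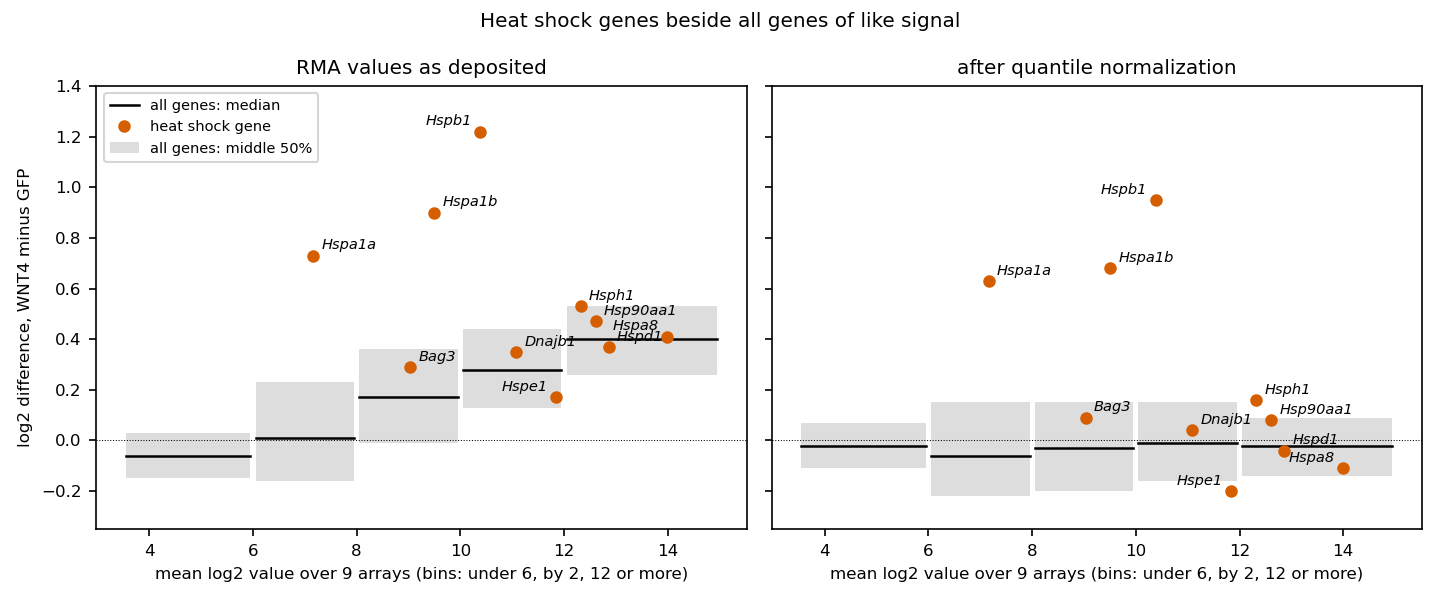
Log2 difference between WNT4 and GFP (vertical axis) against the mean log2 value over 9 arrays (horizontal axis) for the 10 genes, as deposited (left) and after quantile normalization (right), with lines for the median and grey boxes for the middle 50% of all genes in each bin. As deposited, the median of all genes goes from -0.06 under 6 to 0.40 at 12 or more, and Hspa1a, Hspa1b and Hspb1 lie above the grey boxes in both panels. On the right Hsph1 also lies above its box, and Hspe1 lies below its box.

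Quantile normalization, which gives all arrays the same distribution, left a narrower set. The differences from GFP were then 0.63 for Hspa1a, 0.68, 0.96 and 0.93 for the probe sets of Hspa1b, 0.95 and 0.94 for Hspb1 and 0.43 for the second Dnajb1 probe set. Hsph1 stood at 0.16, Bag3 at 0.09, Hsp90aa1 at 0.08 and the brighter Dnajb1 probe set at 0.04. Hspa8 (-0.11), Hspd1 (-0.04) and Hspe1 (-0.20) changed sign. The order of the WNT4 arrays changed too. At the brightest probe sets WNT4 2 was then the lowest WNT4 array for Hspa1a, Hspa1b, Dnajb1, Hsp90aa1 and Bag3. WNT4 3 was the lowest for Hspa8, Hspd1, Hspe1 and Hspb1, and WNT4 1 for Hsph1. The median of the 10 genes was 0.09, and 0 of their 23 probe sets passed after adjustment, against 0.00666% of all (3 of 45037). At an unadjusted p under 0.05, 7 probe sets were higher, of Hspa1a, Hspa1b, Dnajb1 and Hspb1, against 4.61% of all.

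Cells labelled Cre were compared with the same GFP arrays, so the comparisons share their controls. Hspa1b was 1.41 times as high as with GFP (0.49 ± 0.20, SE, n = 3 arrays per group; limma adjusted p = 1), and Hspb1 0.50 ± 0.28 higher with overlapping groups. Hspa1a differed by 0.23 ± 0.16, and the 3 Cre arrays, 7.05 to 7.09, were all above GFP. The second Dnajb1 probe set stood at 0.40 ± 0.08 (1.32-fold, unadjusted p = 0.00105, adjusted p = 1), with all Cre arrays above all GFP arrays. Its brighter probe set stood at 0.06 ± 0.23. Hsp90aa1 (0.20), Hsph1 (0.17), Hspa8 (0.10), Hspd1 (0.08), Hspe1 (0.04) and Bag3 (-0.05) followed, with standard errors of 0.16 to 0.20. None of the 23 probe sets passed limma's adjusted test, nor did any of the 45037 (0%). At an unadjusted p under 0.05, 3 were higher (1.01% of all) and 0 lower (1.22% of all). Groups were apart at 4, of Hspa1a, Hspa1b and Dnajb1 (2.98% of all). The median over the 10 genes was 0.13, against -0.01 for all genes.

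Cells labelled WNT4 and Cre were compared with each other to set apart what both viruses share relative to GFP. Hspb1, at its brighter probe set, was 1.65 times as high with WNT4 as with Cre (0.72 ± 0.28) and Hspa1a 1.41 times (0.50 ± 0.16). Both were without overlap and at adjusted p = 0.773 in limma's test. The other Hspb1 probe set differed by 0.58 ± 0.28 with overlapping groups. The brightest Hspa1b probe set differed by 0.41 ± 0.20 with overlapping groups, and the others by 0.64 and 0.67. The remaining 7 genes differed by 0.13 (Hspe1) to 0.36 (Hsph1), with Bag3 at 0.34 ± 0.16. No probe set passed after adjustment, among these or all (0%). At an unadjusted p under 0.05, 6 of 23 were higher (5.07% of all) and 0 lower (1.17% of all). Groups were apart at 3, the brighter Hspb1 probe set, Hspa1a and the second Dnajb1 probe set, against 5.38% of all. The median of the 10 genes was 0.33 and that of all genes 0.04. After quantile normalization the median was 0.06. Then 2 of 23 probe sets were higher at an unadjusted p under 0.05 (1.98% of all), and groups were apart at 1, Hspa1a (4.49% of all), with Hspb1 overlapping. A further limma fit of all 9 arrays, GFP included, took the replicate number as a block. There 8 of 23 probe sets were higher at an unadjusted p under 0.05 (5.91% of all) and 0 were called. Between arrays of the same number, the brightest Hspa1b probe set was higher with WNT4 than with Cre by 0.56, 0.09 and 0.58. In the block fit the Hspa1b difference was 0.41 ± 0.16 (limma adjusted p = 0.658, unadjusted p = 0.035). The pairs did not agree for every gene. Between arrays 2, Hspa8 (-0.14), Hsp90aa1 (-0.22), Hspd1 (-0.13) and Dnajb1 (-0.01) were lower with WNT4 at their brightest probe sets. Hspe1 was equal there, and Hspb1 (1.16), Bag3 (0.22), Hspa1a (0.12) and Hsph1 (0.12) were higher.

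The genes that work with these chaperones were read from lists, each gene by its brightest probe set, and 0 of their members passed the adjusted test in any comparison. Counts here are at an unadjusted p under 0.05 for WNT4 against GFP, where 12.6% of all genes were higher and 4.46% lower. After quantile normalization these shares were 5.07% and 6.94%, and most of the lists below had fewer genes higher. Of Hsf2, Hsf4, Hsf5 and Hsbp1, an HSF1-binding protein, 0 were higher or lower (median -0.02). Both Hsf2 probe sets were dim, at means of 4.72 and 4.06, as were Hsf4 (5.54) and Hsf5 (4.45). Only Hsbp1 (10.62) was not dim, so these values say little about the HSF genes. Hsf1 is not analysed here. Among 11 further HSP40 genes 5 were higher and 1 lower (median 0.28), with Dnajb2, a neuronal HSP40 that sorts ubiquitinated clients, at 0.66 ± 0.12 and Dnajb5 at -0.34 ± 0.13. After quantile normalization 1 was higher and 1 lower, and the median was -0.06. Among 8 exchange and client release factors 4 were higher (median 0.34), led by Stub1, the ubiquitin ligase CHIP that marks HSP70 clients, at 0.80 ± 0.15, and Bag5 at 0.48 ± 0.11. After quantile normalization 2 were higher (median 0.11), with Stub1 at 0.53 and Bag5 at 0.24. Of 8 further HSP70 and HSP110 genes 2 were higher (median 0.25), Hspa4l at 0.28 ± 0.11 and Hspa4 at 0.38 ± 0.16, whereas quantile normalization left 0 higher (median 0.07) and put Hspa4l at 0.09. Of 10 cochaperones of HSP90 3 were higher (median 0.17), among them Cdc37, which brings kinases to HSP90, at 0.38 ± 0.09, and Fkbp5, which acts on steroid receptor complexes, at 0.72 ± 0.26. Quantile normalization gave 1 higher and 1 lower there (median -0.04), with Cdc37 at 0.06 and Fkbp5 at 0.35. Of the small heat shock genes beside Hspb1, 0 of 7 were higher or lower (median -0.06), and Cryab, alpha B-crystallin, differed by -0.87 ± 0.41. After quantile normalization 1 of these was lower (median -0.04).

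Organelle chaperones and clearance genes were set beside the 10 genes in the same comparison. Of 8 subunits of the cytosolic chaperonin TRiC, which folds actin and tubulin, 5 were higher, with a median of 0.37. After quantile normalization 0 were, and the median was -0.06. Of 9 further mitochondrial chaperones and proteases 5 were higher (median 0.62), or 4 higher and 1 lower (median 0.26) after quantile normalization. They included Lonp1, the matrix protease (1.39 ± 0.37), Hspa9, the matrix HSP70 (0.87 ± 0.25), and its exchange factor Grpel1 (0.62 ± 0.14). Over the probe sets of Hspa9 the difference ran from -0.07 to 0.87. Quantile normalization put Lonp1 at 1.07, Hspa9 at 0.47 and Grpel1 at 0.26. Of 5 ubiquitin and clearance genes 2 were higher, Sqstm1, the autophagy receptor p62 (0.89 ± 0.21), and Vcp (0.56 ± 0.17), with a list median of 0.35. After quantile normalization 1 was higher and the median was 0.09, with Sqstm1 at 0.50 and Vcp at 0.16. The highest list median was that of the ER chaperones, of which 14 of 16 were higher, at 1.08, or 12 of 16 and 0.75 after quantile normalization. Hspa5, the ER HSP70 BiP, differed by 1.21 ± 0.31 at its brightest probe set (0.26 to 1.48 over its probe sets), and Herpud1, of ER-associated degradation, by 2.24 ± 0.46. The median ER chaperone was 1.87, 0.33 and 1.29 over the mean of the GFP arrays on WNT4 1, 2 and 3, and 0.03, -0.02 and 0.00 on Cre 1, 2 and 3. WNT4 2 was the lowest WNT4 array for both the ER list and the 10 heat shock genes. This order was not particular to them. On WNT4 1, 2 and 3, TRiC stood at 0.55, 0.09 and 0.47 and the mitochondrial list at 0.86, 0.28 and 0.56. The upper quartile of all values was 8, 7.78 and 7.87 on these arrays. WNT4 2 was not the lowest for the exchange factors (0.55, 0.24 and 0.22), the other small heat shock genes or the HSF list. In Cre against GFP the ER median was -0.01 and 0 genes of any of these lists passed the unadjusted threshold. In WNT4 against Cre, 14 of 16 ER genes were higher (median 1.11), against 6.96% of all genes, or 11 of 16 (median 0.81), against 2.14%, after quantile normalization. How the ER list and the heat shock genes relate was not tested.

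**Figure D4:**
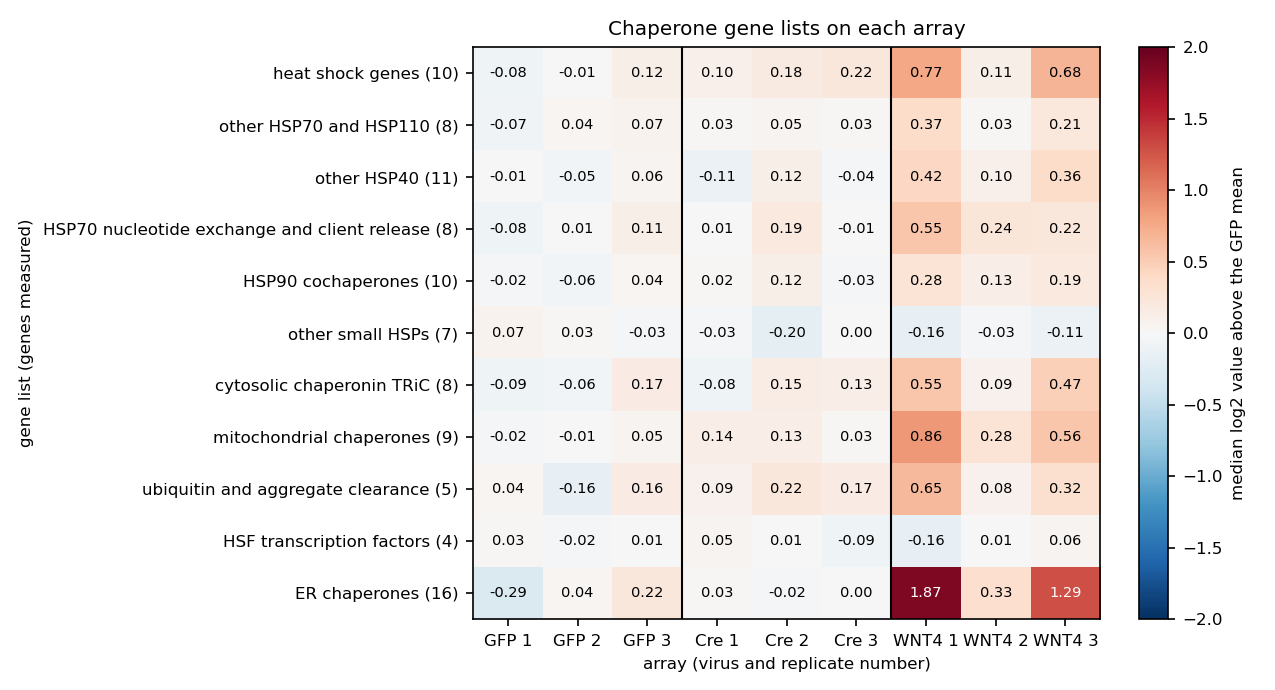
Heat map of gene lists (rows, with the number of genes measured) on the 9 arrays (columns), with colour and printed value for the median log2 value of the list relative to the mean of the GFP arrays. The 10 heat shock genes stand at 0.77, 0.11 and 0.68 on WNT4 1, 2 and 3, and the ER chaperones at 1.87, 0.33 and 1.29.

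The 10 genes also differed in how closely they followed their common profile, the mean of the 10 after each was centred on its own mean. That profile was -0.31, -0.30 and -0.11 on the GFP arrays, -0.02, -0.11 and -0.04 on the Cre arrays and 0.52, 0.01 and 0.38 on the WNT4 arrays. Pearson's r with it over the 9 arrays was highest for Hspa1a (0.992) and Hsp90aa1 (0.93), and lowest for Dnajb1 (0.694) and Hspe1 (0.557). Each gene is part of that mean, so these values are a description. Among 10546 other genes with a mean of at least 6, those most like the profile were Esf1 (0.988), Tmbim1 (0.988), Ints5 (0.987), Ubqln4 (0.983) and Ier2 (0.981). Hspa5 ranked 195 at 0.934. All arrays of a group share their treatment, and all genes of an array share its distribution of values, so no p is attached.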

How the data were processed

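Log2 expression values were made with RMA and deposited by the authors, per the submitters' processing notes, in a version not given in the sources used here. Their log2 scale was read from the values. Of 45101 probe sets, 64 controls were left out. Of the 45037 tested, 34945 had 1 symbol (34741 updated by Entrez ID through RefSeq, GRCm38.p6), 932 several and 9160 none. No 2 arrays shared over 4.53% equal values. All 9 arrays entered 1 limma 3.58.1 fit (R 4.3.3; lmFit, eBayes, no covariate, two-sided, 6 residual and 2.8 prior degrees of freedom), with Benjamini-Hochberg adjustment over all probe sets and a threshold of 0.05. An exact permutation test of 3 against 3 arrays cannot go below 0.1. The procedure was run on simulated data with independent noise for each probe set and array. That simulation lacks the differences in distribution between these arrays, so it cannot tell how the test performs on them. A gene was read from its brightest probe set. Named were all probe sets of the 10 genes and Hsf2, up to 3 genes per list by p, Hspa5 and the 5 genes most like the common profile; Wnt4, Ctnnb1, Hspa9 and single markers were added after their values were seen. Members and lists were chosen with earlier results of these data known. As alternatives, the fit was repeated with a replicate block, with only the arrays compared, after quantile normalization or centring (median, 75th percentile), without dim probe sets, with an intensity trend or array weights, with gene means over probe sets, and without single arrays. Replicate numbers are not tied to animals by the labels. Deviations of same-numbered arrays correlated over probe sets at 0.21, 0.24 and 0.77 in WNT4 against Cre. The block fit is given for that comparison because of these values, and it ties the GFP arrays to the replicate number too. Correlations were -0.08, 0.01 and 0.35 for WNT4 with GFP and -0.04, -0.31 and 0.31 for Cre with GFP.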

Additional observations from a re-analysis of the deposited data

How the results depend on the processing

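Of 681 values recomputed under an alternative, 657 were labelled the same, 3 moved, 2 passed the threshold and 19 changed sign. Among them were 570 changes of single genes, of which 549 kept their direction and side of the threshold. The others were counts and medians. Counts were labelled the same if their ratio changed little, and medians if they shifted by less than the pooled SD of 0.22. With the replicate number as a block, 0 of the 23 heat shock probe sets were called in any comparison, and the block changed no call. Leaving out 1 array gave 0 to 6 called probe sets in WNT4 against GFP, 0 in the other comparisons. The 6 came without WNT4 2. The range for Hspa1a was 0.58 to 0.93 and for Hspa1b 0.72 to 1.12, both called at the upper end. After quantile normalization the median difference of the 10 genes was 0.09 in WNT4 against GFP and 0.06 in WNT4 against Cre. Centring on the 75th percentile put the median over all probe sets at -0.15 in WNT4 against GFP and that of the 10 genes at 0.29. Sign changes under quantile normalization were Hspa8 (-0.11), Hspd1 (-0.04) and Hspe1 (-0.20) in WNT4 against GFP, Dnajb1 (-0.01), Hspd1 (-0.01) and Hspe1 (-0.04) in Cre against GFP, and Hspa8 (-0.13), Hsp90aa1 (-0.05), Hspd1 (-0.03) and Hspe1 (-0.16) in WNT4 against Cre. The 75th percentile gave -0.01 for Hspe1 in Cre against GFP, and leaving out Cre 3 and WNT4 3 together gave -0.09 for Dnajb1 there. With 1 array left out, Hspe1 ranged from -0.04 to 0.31 in WNT4 against GFP, from -0.02 to 0.10 in Cre against GFP and from -0.08 to 0.26 in WNT4 against Cre. In Cre against GFP, Dnajb1 ranged from -0.09 to 0.17 and Bag3 from -0.16 to 0.03. The cause of these sign changes was not tested. The number of arrays limits the precision.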
